A study of Mus musculus with 20 samples.

Results

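The comparison asked what adding an inhibitor of miR-92a-3p changed in the aortic endothelium of mice that already received an inhibitor of miR-489-3p. It used 8 of the 20 RNA-sequencing libraries of the study, chosen by their treatment labels. These were 4 mice given HDL with LNA489, called LNA489 here, and 4 given HDL with LNA92a and LNA489, called dual here. All 8 were female B6.129P2-Apoetm1Unc/J mice, which are Apoe-/- and were kept on regular chow. All had 5/6 nephrectomy at 9 weeks of age and 1 retro-orbital injection 7 weeks later, and RNA was collected 1 week after that by lysing the endothelial surface of the aorta. Both groups received 4 mg of HDL and 20 mg/kg of LNA489. The dual group also received 20 mg/kg of LNA92a, so its total LNA dose was 40 mg/kg against 20 mg/kg, and no group of the study received a control LNA. The presence of LNA92a and the higher total dose therefore cannot be told apart. Each library came from its own mouse, a library carries the name of its group and the number of its animal, and mature microRNAs were not analysed here.

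MicroRNAs guide Argonaute proteins to messenger RNAs, mostly by pairing of their seed with sites in the 3′ UTR, and bound messages are translated less and decay faster. A locked nucleic acid (LNA) inhibitor is a short oligonucleotide with stiffened sugars that pairs with a mature microRNA and keeps it from its targets. In endothelium, miR-92a-3p of the miR-17-92 cluster is known for lowering Klf2 and Klf4, the transcription factors that blood flow induces and that hold the endothelium in a quiescent, anti-adhesive state. HDL binds small RNAs and exchanges them with cells, and it accepts cholesterol from macrophages of the artery wall.

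The sequences of both inhibited microRNAs are shown because they define the sites that the comparison could act through. The capitals mark the seed, bases 2 to 8, and the letters are from RefSeq on GRCm38.p6.
miR-92a-3p: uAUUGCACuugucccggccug
miR-489-3p: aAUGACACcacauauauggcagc
The mature miR-92a-3p is encoded at chr14:115044476-115044496 on the plus strand and again at chrX:52741854-52741874 on the minus strand, and miR-489-3p at chr6:3721922-3721944 on the minus strand. In the same table miR-25-3p, miR-32-5p, miR-363-3p, miR-367-3p and miR-92b-3p have the seed of miR-92a-3p, and miR-425-5p has that of miR-489-3p.

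The matching sites in 5 reported targets are shown as examples of what the added inhibitor could expose, and 8-base sites were found in Bcl2l11, Dkk3, Fbxw7, Itgav and Kat2b as well. Each lies in the 3′ UTR, in the last exon of the transcript, on GRCm38 with GENCODE M21. The capitals mark the 8-base match, which is the complement of the seed followed by A.
Klf2 chr8:72321117-72321140 plus strand: gaatgttttcaaaatgGTGCAATA
Klf4 chr4:55527367-55527390 minus strand: cactgtggtttcagatGTGCAATA
Itga5 chr15:103344315-103344338 minus strand: ttaaactctgttgcaaGTGCAATA
Map2k4 chr11:65690579-65690602 minus strand: ctcgcccagacaccatGTGCAATA
Dusp10 chr1:184075261-184075284 plus strand: gcctttgctggcactcGTGCAATA
Map2k4 has a second site of this kind at chr11:65690181-65690204. An 8-base match to miR-92a-3p (GTGCAATA, read on the transcribed strand) is in the longest 3′ UTR of 2.21% of 21699 protein-coding genes, so the match is uncommon but far from unique to these targets. Neither that match nor a shorter match of 7 bases was found in the longest 3′ UTR of Sirt1 or Plpp3, which says only that these letters are not in that window.

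Sequencing assigned 12.9 to 19.9 M reads (M, mega) to genes in the LNA489 libraries and 13.3 to 21.4 M in the dual libraries, and 3.25 to 12.0% of them fell on the 18S ribosomal RNA gene. Between 17378 and 22754 genes had a read, fewest in LNA489 7. The libraries differed more in the tissue they carried than by group. Across tested genes the median correlation of variance-stabilized log2 values was 0.920 within groups and 0.933 between them. LNA489 13 and dual 21 stood apart from the other 6 libraries and correlated at 0.953 with each other. Both had little fat. The mean of the 12 white adipocyte markers was 8.75 in LNA489 13 and 7.63 in dual 21, against 10.9 to 12.4 in the other 6. Dual 10 carried RNA of adrenal cortex, with 602 FPKM (fragments per kilobase and per M assigned reads) of the steroid enzyme Hsd3b1 where no other library passed 1.59. Pancreatic digestive enzymes stood out in LNA489 13, 14 and 19, with 8-gene sums of 567, 202 and 44.2 FPKM. The sum was 8.29 in LNA489 7, within the 4.33 to 14.5 of the dual group. Cela1 made up most of the sum in the dual libraries, with 13.8 FPKM in dual 10. Libraries outside the comparison carried these enzymes too, with a sum of 31.6 FPKM in HDL 23. Endothelial RNA was present in all 8, though unevenly. Pecam1 had 83.1, 190, 38.6 and 247 FPKM in LNA489 7, 13, 14 and 19 and 316, 245, 41.0 and 700.3 in dual 8, 10, 15 and 21.

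**Figure D1:**
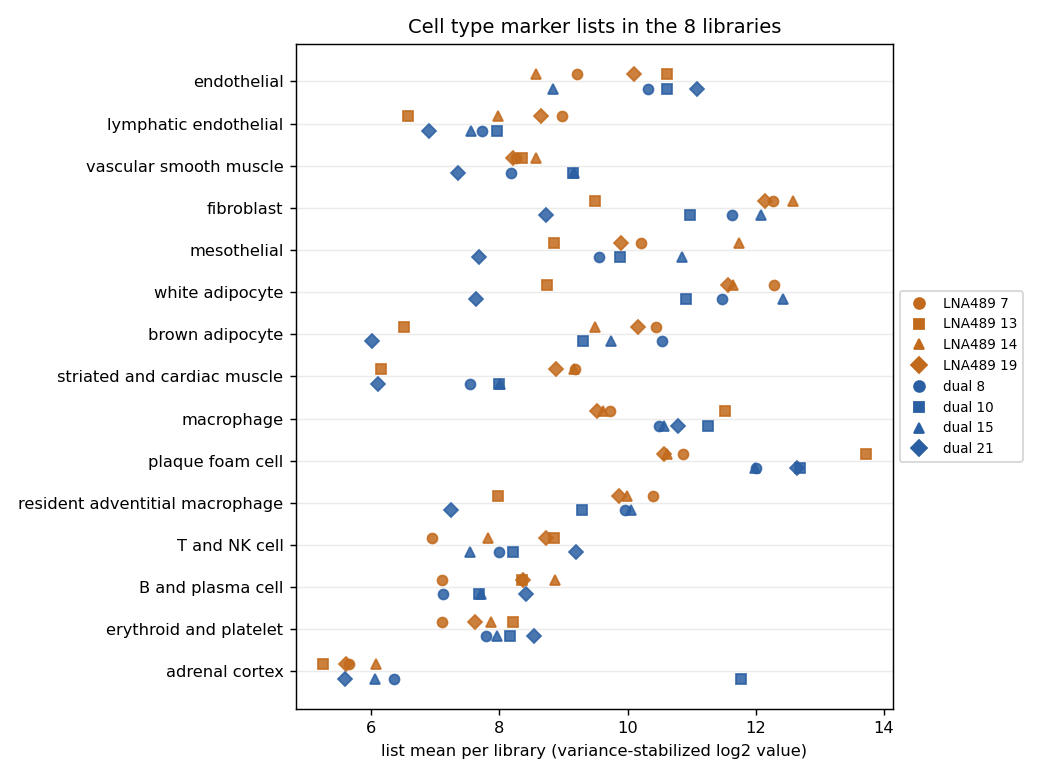
Mean variance-stabilized log2 value of each cell type marker list (x axis) in every library, with LNA489 libraries in orange and dual libraries in blue, 1 symbol per animal. LNA489 13 and dual 21 lie lowest in white adipocyte markers at 8.75 and 7.63, dual 10 lies alone in adrenal cortex at 11.8, and LNA489 13 lies highest in plaque foam cell markers at 13.7.

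No gene passed the test. Limma with Benjamini-Hochberg adjustment called 0 of 16848 genes (0.0%) at an adjusted p under 0.05, and the smallest adjusted p was 1. At an unadjusted p under 0.05 there were 277 genes (1.64%), of which 147 were higher (0.873%) and 130 lower (0.772%) in dual. Such a threshold lets through a share of about 0.05 where no gene differs. Limma voom on recovered whole reads also called 0, with 363 genes at an unadjusted p under 0.05. On log2(FPKM + 0.1) the median difference of all genes was 0.11 and the genes at an unadjusted p under 0.05 split into 217 higher and 74 lower, and on log2(FPKM + 1) into 186 and 98. The groups did not overlap in 226 genes (1.34%), 106 of them higher (0.629%) and 120 lower (0.712%) in dual. The median gene had an unadjusted 95% interval of 0.75 to either side of its log2 difference. Changes below that size were mostly not detectable with 4 mice a group. Larger ones were not sure to be called either. A log2 difference above 1 in size was seen in 261 genes (1.55%), and 0 were called.

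The reported targets of miR-92a-3p did not lie higher as a group when its inhibitor was added. Of 20 listed, 19 were tested, 11 were higher and 8 lower, 0 reached an unadjusted p under 0.05, and the median log2 difference was 0.015 beside 0.00054 for all tested genes, 50.1% of which were above 0. With 1 library left out the median of the targets lay between -0.06 (without LNA489 14) and 0.12 (without dual 15). Klf2 stood at 36.9, 43.7, 101 and 47.8 FPKM in LNA489 7, 13, 14 and 19, and at 77.7, 63.3, 34.2 and 177 FPKM in dual 8, 10, 15 and 21. The highest and the lowest of these were both dual libraries. The log2 difference of Klf2 was 0.37 ± 0.46 (SE, n = 4 a group) with a 95% interval from -0.59 to 1.33 (limma, adjusted p = 1). It was -0.01 without dual 21, the library richest in endothelial RNA.

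Klf4 was at 35.6, 11.7, 48.2 and 32.4 FPKM in LNA489 and 46.9, 18.2, 26.7 and 79.4 FPKM in dual, in the same order of animals, with overlapping groups. LNA489 13 was the lowest, and the log2 difference went from 0.25 ± 0.54 with all libraries to -0.21 without it. Itga5, the alpha chain of the fibronectin receptor, had 9.92, 51.3, 11.7 and 24.8 FPKM in LNA489 and 29.3, 37.1, 9.92 and 69.2 FPKM in dual. It was lowest in LNA489 7, LNA489 14 and dual 15, the libraries with the least Pecam1, and its log2 difference of 0.46 ± 0.93 had an interval from -1.48 to 2.41.

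Map2k4, a kinase upstream of JNK with the pair of sites given above, had a narrower interval than these 3 genes. It ranged from 8.62 to 11.4 FPKM in LNA489 and from 8.38 to 12.0 FPKM in dual, with a log2 difference of 0.0048 ± 0.17 (interval -0.35 to 0.36).

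The other targets followed no common direction. Dusp10, a phosphatase of p38 and JNK, had the largest positive difference, at 1.47, 2.40, 7.07 and 4.42 FPKM in LNA489 against 6.85, 6.85, 7.70 and 4.23 FPKM in dual (log2 difference 0.69 ± 0.42). Dkk3, a secreted glycoprotein of the Dickkopf family, had the most negative, at -0.57 ± 0.68. Sirt1, a deacetylase that protects endothelium, gave -0.38 ± 0.23, the integrin chain Itgav -0.35 ± 0.22 and the lipid phosphatase Plpp3 -0.36 ± 0.44. Socs5, a suppressor of cytokine signalling, gave -0.19 ± 0.30, and Bcl2l11, the pro-apoptotic protein BIM, 0.26 ± 0.36. In every one of these genes the groups overlapped. Mir17hg, the transcript that holds Mir92-1, was at 1.03, 2.51, 0.808 and 1.64 FPKM in LNA489 and 1.71, 2.15, 0.259 and 3.25 FPKM in dual, a log2 difference of -0.01 ± 0.46, and its direction turned under several settings.

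**Figure D2:**
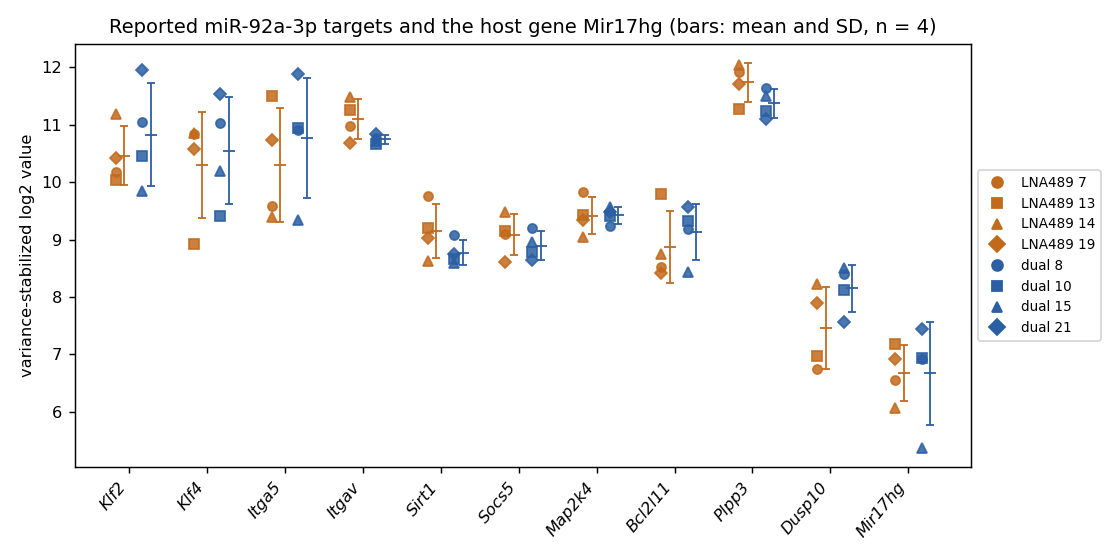
Variance-stabilized log2 value (y axis) of 10 reported miR-92a-3p targets and Mir17hg in each LNA489 (orange) and dual (blue) library, with the group mean and SD (n = 4). The groups overlap in every gene shown, and Klf2 and Klf4 have their highest values in dual 21.

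Genes that carry a miR-92a-3p site were not higher in the dual group either. Of 13008 tested genes with an annotated 3′ UTR, 360 had an 8-base match in their longest one. Their median log2 difference was -0.03 and 46.1% were higher, against -0.0014 and 49.8% of 9689 genes without a match. The 7-base match without the final A (GTGCAAT) had a median of -0.04, the 7-base match with it (TGCAATA) one of -0.07, and the 6-base core (TGCAAT) one of -0.05. UTR length moved with these classes, with a median of 2513.5 bases for genes with the 8-base match and 872 for genes without any. Across the 13008 genes its Spearman rho with the log2 difference was -0.11. Its part in the medians above was not tested. Among genes whose longest 3′ UTR had 1000 to 2000 bases, 83 with the 8-base match had a median of 0.0071 and 2433 without a match -0.016. The other classes of that length stayed below the genes without a match, at -0.029 and -0.048 for the 7-base matches without and with the final A and -0.022 for the 6-base core. Sites of miR-489-3p, whose inhibitor both groups received, gave nearly the same picture, with -0.05 for 270 genes with its 8-base match (GTGTCATA, in 1.87% of 3′ UTRs) and 0.0043 for 8225 without.

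**Figure D3:**
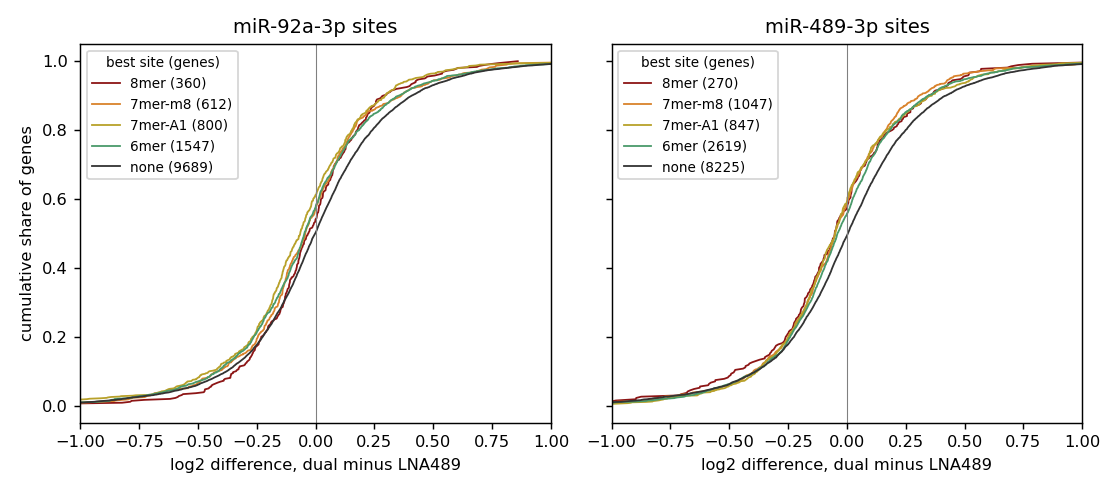
Cumulative share of genes (y axis) against the log2 difference, dual minus LNA489 (x axis), for genes grouped by their best miR-92a-3p site (left) or miR-489-3p site (right) in the longest 3′ UTR. The curves for genes with a site lie slightly left of the curve for genes without one in both panels, with medians of -0.03 and -0.0014 for the 8-base miR-92a-3p match and no match.

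Endothelial markers were mostly higher in the dual group, but by less than the mice differed. Of 22 markers, 21 were higher in dual with a median log2 difference of 0.65, 0 reached an unadjusted p under 0.05 and 0 had groups that did not overlap. The list mean was 9.21, 10.6, 8.58 and 10.1 in LNA489 7, 13, 14 and 19 and 10.3, 10.6, 8.83 and 11.1 in dual 8, 10, 15 and 21. LNA489 14 and dual 15 were the poorest in endothelial RNA and dual 21 the richest, and the median went from 0.28 without LNA489 14 and 0.29 without dual 21 to 1.09 without dual 15. In such bulk samples, fewer endothelial cells and less RNA per endothelial cell cannot be told apart.

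Single endothelial genes had the same spread. Cdh5, the junction protein VE-cadherin, was at 13.6, 80.5, 11.9 and 37.3 FPKM in LNA489 and 44.1, 86.5, 14.6 and 120.0 FPKM in dual (log2 difference 0.82 ± 1.07). Vwf, the platelet-binding factor stored in endothelium, gave 0.64 ± 1.40, and Nos3, the endothelial nitric oxide synthase, 0.76 ± 1.25. Among the markers with the smallest p, Emcn gave 0.94 ± 0.70, Plvap, the diaphragm protein of fenestrae, 1.08 ± 0.99 and Robo4 0.53 ± 0.45. Kdr, the main VEGF receptor, was the 1 marker that was lower, at -0.57 ± 0.57.

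Of 20 genes of flow-responsive endothelial quiescence, 14 were higher, with a median of 0.20 that was 0.02 without dual 21, 0.095 without dual 10 and 0.34 without dual 15. The 1 member at an unadjusted p under 0.05 was lower. This was Ptgds, a prostaglandin D synthase induced by laminar flow, at 0.736, 0.554, 2.74 and 0.515 FPKM in LNA489 and 0.092, 0.199, 0.277 and 0 FPKM in dual. Every LNA489 library lay above every dual one, with a log2 difference of -1.0004 ± 0.47 (unadjusted p = 0.045, limma adjusted p = 1). These levels rest on 11 to 90 reads in LNA489 and 0 to 9 in dual. The sphingosine-1-phosphate transporter Spns2 gave -0.44 ± 0.28.

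Notch genes held 2 of the 6 members of all 40 lists that reached an unadjusted p under 0.05, and these 2 went opposite ways. Mfng, which glycosylates Notch receptors and tunes their response to ligands, was at 1.147, 5.44, 3.11 and 3.999 FPKM in LNA489 and 5.61, 11.3, 5.46 and 14.6 FPKM in dual. The groups did not overlap, though LNA489 13 and dual 15 all but met, and the log2 difference was 1.161 ± 0.51 (unadjusted p = 0.033, adjusted p = 1). Hes1, a repressor that active Notch induces, was at 3.01, 6.43, 4.13 and 4.09 FPKM in LNA489 and 2.81, 4.02, 1.05 and 3.03 FPKM in dual, a log2 difference of -0.65 ± 0.26 (unadjusted p = 0.022, adjusted p = 1). Its groups overlapped on FPKM and not on the variance-stabilized scale. Heyl, another Notch-induced repressor, gave 0.61 ± 0.32 and the receptor Notch2 -0.44 ± 0.27. Over the pathway 12 of 16 genes were higher, with a median of 0.48, which was 0.11 without dual 21, 0.18 without LNA489 14, 0.22 without LNA489 7 and at most 0.66, without LNA489 13.

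General macrophage and plaque foam cell markers were mostly higher in dual, and 1 LNA489 mouse stood apart from its group in them. Markers of resident adventitial macrophages went the other way. Of 9 such markers, 8 were lower in dual with a median log2 difference of -0.54, and 0 reached an unadjusted p under 0.05. That median was 0.06 without dual 21 and -1.03 without LNA489 13. Of 15 macrophage markers, 13 were higher in dual with a median log2 difference of 0.94, and of 13 plaque foam cell markers 12 were higher with a median of 1.05, yet 0 in either list reached an unadjusted p under 0.05. The foam cell list mean was 10.9, 13.7, 10.6 and 10.6 in LNA489 7, 13, 14 and 19 and 12.0, 12.7, 12.0 and 12.6 in dual 8, 10, 15 and 21. LNA489 13 was thus above all 4 dual libraries while the other 3 LNA489 libraries were below them all.

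Lgals3 and Trem2 split the LNA489 mice around the dual group as the foam cell list mean did. Lgals3, a lectin abundant in plaque macrophages, was at 42.3, 675, 70.0 and 34.3 FPKM in LNA489 and 162, 396, 164 and 338 FPKM in dual. Trem2, the lipid receptor of foamy macrophages, was at 2.49, 49.7, 5.06 and 3.97 FPKM in LNA489 and 13.4, 26.8, 13.4 and 34.7 FPKM in dual. In both genes 1 LNA489 mouse exceeded the whole dual group and 3 lay below it. The log2 differences were 1.29 ± 0.87 for Lgals3, 1.31 ± 0.89 for Trem2, 1.55 ± 1.05 for the proton pump subunit Atp6v0d2 and 1.05 ± 0.73 for the lysosomal protease Ctsd. Among macrophage markers, C1qc of the first complement component gave 1.09 ± 0.53, the signalling adaptors Tyrobp and Fcer1g 1.21 ± 0.60 and 0.94 ± 0.56, and the Fc receptor Fcgr1 1.12 ± 0.55.

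Leaving out LNA489 13 raised the number of genes at an unadjusted p under 0.05 from 277 to 906 (5.38% of all). This is near the share of 0.05 that such a threshold lets through where no gene differs. Of the 906, 627 were higher (3.72%) and 279 lower (1.66%) in dual. Limma still called 0 genes, with a smallest adjusted p of 0.469. Without it 10 of 15 macrophage markers and 7 of 13 foam cell markers were higher at an unadjusted p under 0.05, with medians of 1.53 and 2.00, and 11 in each list were higher in dual with no overlap (4.98% of all genes were). Lgals3 then gave a log2 difference of 2.19 (unadjusted p = 0.011), Tyrobp 1.88 (unadjusted p = 0.0018) and C1qc 1.67 (unadjusted p = 0.0019). The lowest medians with 1 library left out were 0.62 for macrophage (without LNA489 7) and 0.74 for foam cell markers (without LNA489 14). The values without LNA489 13 were obtained by removing a library after its levels were seen, and 1 mouse of 4 then no longer counts.

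Genes of cholesterol efflux had a similar pattern. Of 18, 14 were higher with a median of 0.29 and 0 at an unadjusted p under 0.05. Without LNA489 13, again left out after its levels were seen, the median was 0.61. In that setting 5 were higher at an unadjusted p under 0.05 (3.72% of all genes were). The lowest medians were 0.196 without LNA489 19 and 0.197 without dual 10. Nceh1, which hydrolyses cholesteryl esters in macrophages, was at 7.73, 61.6, 12.9 and 6.17 FPKM in LNA489 and 21.8, 33.2, 16.1 and 38.4 FPKM in dual. As for Trem2, LNA489 13 was above the whole dual group and the other LNA489 libraries were below it. Npc2, which moves cholesterol out of lysosomes, gave 0.41 ± 0.32. Nr1h2, the sterol receptor LXR beta, gave 0.26 ± 0.13 (unadjusted p = 0.070).

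Apoe was read in all libraries although every mouse is Apoe-/-. It was at 3.70, 10.8, 4.74 and 8.92 FPKM in LNA489 and 10.7, 15.0, 11.2 and 24.7 FPKM in dual, with a log2 difference of 0.93 ± 0.51 (unadjusted p = 0.086). The groups overlapped narrowly on FPKM and not on the variance-stabilized scale. Counts over the whole gene cannot say whether a message is intact, and since both groups carry the allele this gene checks no label of the comparison.

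**Figure D4:**
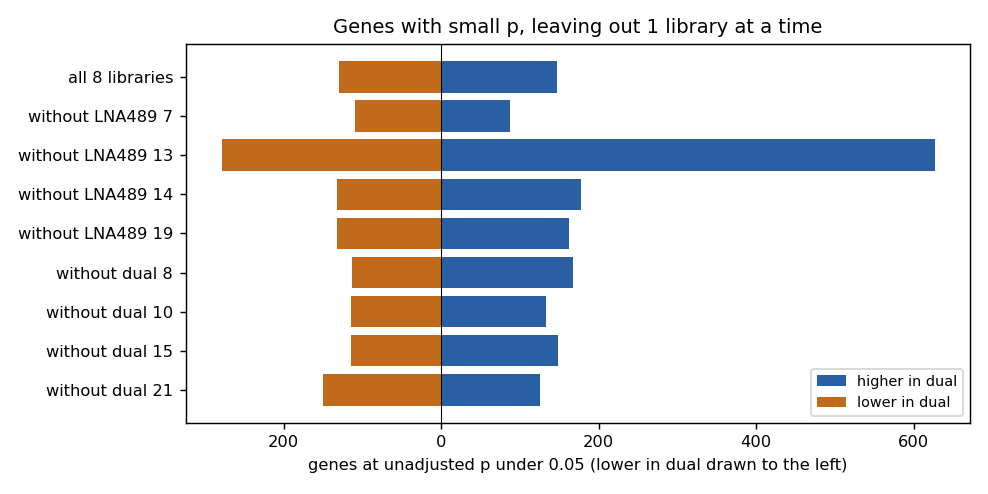
Number of genes at an unadjusted p under 0.05, higher (blue, right) and lower (orange, left) in dual, with all 8 libraries and with 1 left out (rows). The count goes from 277 with all libraries (1.64% of genes) to 906 without LNA489 13 (5.38%) and 197 without LNA489 7.

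Markers of fibroblasts, mesothelium and muscle were mostly lower in dual, again within the spread of the mice. Adrenal cortex markers went the other way. All 8 tested were higher in dual with a median log2 difference of 2.03, which was 0.54 without dual 10, and 0 reached an unadjusted p under 0.05. Of 14 fibroblast markers 13 were lower with a median log2 difference of -0.81. With or without LNA489 13, 0 of them reached an unadjusted p under 0.05. Once LNA489 13 was left out, 7 were lower with no overlap (3.51% of all genes were). Col1a2, a chain of type I collagen, was at 54.1, 12.1, 95.8 and 62.0 FPKM in LNA489 and 37.2, 23.8, 56.0 and 5.19 FPKM in dual. LNA489 13 and dual 21 were the lowest of their groups, and the list median was -0.08 without dual 21 and -1.54 without LNA489 13. All 7 mesothelial markers were lower, with a median of -0.78. Of 17 striated and cardiac muscle markers 16 were lower, with a median of -0.87. In both lists 0 reached an unadjusted p under 0.05. Without LNA489 13, 0 mesothelial and 3 muscle markers were lower at that level (1.66% of all genes were). Without dual 21 the mesothelial and muscle medians were -0.12 and -0.47, and without LNA489 13 they were -1.20 and -1.76. The mesothelial median was also -0.225 without LNA489 14, and that of fibroblasts -0.51 without LNA489 14 and -0.52 without LNA489 7. Actc1, cardiac actin, was at 33.5, 10.5, 15.5 and 68.6 FPKM in LNA489 and 9.88, 34.9, 5.37 and 0.038 FPKM in dual (log2 difference -1.93 ± 1.26).

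The median of fat genes changed sign with the library that was left out. The white adipocyte median was -0.58 with all libraries, 0.49 without dual 21, -0.11 without LNA489 7 and -1.46 without LNA489 13. Cfd, the adipocyte serine protease adipsin, was at 1227, 115, 1060 and 847 FPKM in LNA489 and 681, 643, 1436 and 25.4 FPKM in dual. Ucp1, the uncoupling protein of brown fat, was at 480, 33.2, 601 and 476 FPKM in LNA489 and 905, 538, 188 and 12.7 FPKM in dual. In both genes the lowest library of each group was the fat-poor one. Oxidative phosphorylation genes, which fat expresses strongly, gave -0.11, then 0.54 without dual 21 and -0.59 without LNA489 13.

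The genes with the smallest p are given as values, since none was called. Slc16a4, a member of the monocarboxylate transporter family, was at 3.24, 2.49, 6.50 and 3.27 FPKM in LNA489 and 1.21, 2.02, 2.21 and 1.90 FPKM in dual. The groups did not overlap and the log2 difference was -0.91 ± 0.23 (unadjusted p = 0.00079, adjusted p = 1). It was -1.10 without LNA489 13, where its adjusted p was 0.797. Nhej1, which aligns broken DNA ends for joining, was at 5.60, 3.32, 3.95 and 2.42 FPKM in LNA489 and 0.675, 1.55, 0.455 and 0.663 FPKM in dual, a log2 difference of -1.21 ± 0.33 (unadjusted p = 0.0016).

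Among the 10 lower genes 2 encode pancreatic enzymes. Cpb1, a carboxypeptidase, had 88, 1069, 540 and 72 reads in LNA489 and 0, 1, 1 and 0 in dual. Cel, a lipase, had 20, 1275, 558 and 123 reads in LNA489 and 0, 2, 0 and 2 in dual. Every LNA489 library was far above every dual one, and 1 saline library held still more, with an 8-gene pancreatic sum of 801.5 FPKM. The part of pancreatic tissue in these values was not tested. The other lower genes were Fam188b, Pgm3, an enzyme of amino sugar synthesis, the antisense RNA Ube4bos2, Slf1, F8a and the lysosomal sulfatase Arsg, with log2 differences from -0.91 to -0.70.

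On the higher side, Elp6, a subunit of the Elongator complex that modifies transfer RNAs, was at 0.022, 1.41, 0.698 and 0.081 FPKM in LNA489 and 1.63, 1.50, 3.12 and 1.49 FPKM in dual. The groups did not overlap on FPKM but did on the variance-stabilized scale, and the log2 difference was 1.30 ± 0.36 (unadjusted p = 0.0022, adjusted p = 1). Bbc3, the pro-apoptotic p53 target PUMA, was at 1.05, 2.64, 1.23 and 1.93 FPKM in LNA489 and 2.84, 2.91, 3.97 and 5.18 FPKM in dual, with no overlap and a log2 difference of 0.73 ± 0.27 (unadjusted p = 0.013). The Mir99a locus had 0 reads in all 4 LNA489 libraries and 13, 13, 11 and 8 in dual. It lies inside Mir99ahg, and reads of that host cannot be told from its own. Pelo, which rescues stalled ribosomes, gave 0.66 ± 0.24 and overlaps Itga1. Eef2kmt, which methylates elongation factor eEF2, gave 0.90 ± 0.26, the SUMO ligase Pias2 0.48 ± 0.16 and the actin regulator Wash1 0.69 ± 0.26. Zfp97, Zfp609 and Rpl28-ps1 completed the 10, at 0.99 ± 0.34, 0.39 ± 0.14 and 0.71 ± 0.26.

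LNA489 7, the library with the fewest genes detected, was the lowest of the 8 in 8 of these 10 higher genes. It was also lowest in 114 of the 147 higher genes (77.6%), beside 27.7% of all tested genes. Genes picked as higher in dual tend by that choice to be lowest in an LNA489 library, so these shares are not directly comparable. Without LNA489 7, 51 of the 147 remained at an unadjusted p under 0.05. So did 9 of the 10, which had been picked for their small p. Of the 147, 57.1% were not protein coding, as were 34.6% of the 130 lower genes, beside 22.7% of all tested genes. Another annotated gene overlaps 4 of the 10 higher and 6 of the 10 lower genes, and whether reads were counted by strand was not given in the sources used here.

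**Figure D5:**
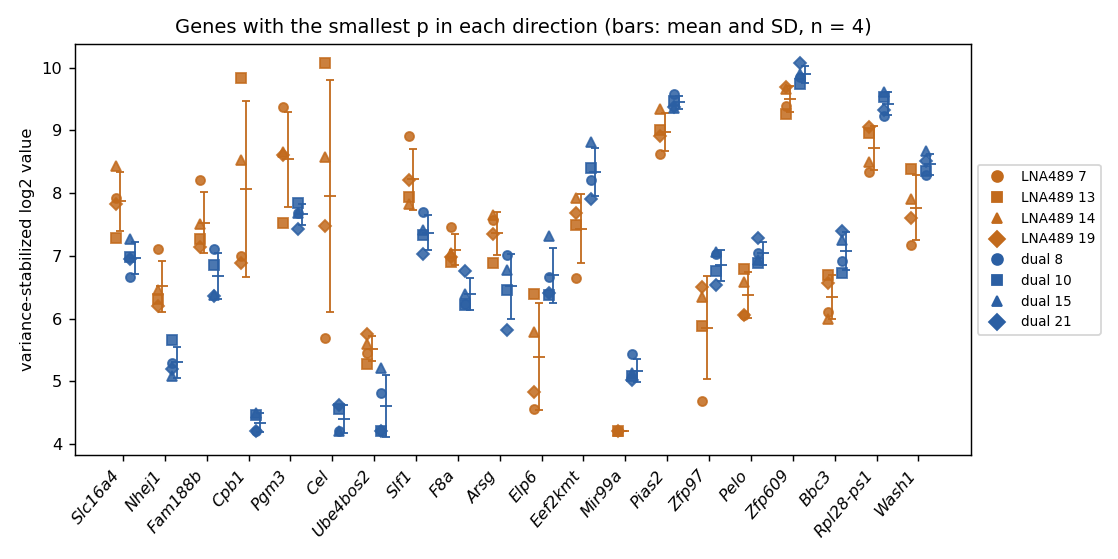
Variance-stabilized log2 value (y axis) of the 10 lower and 10 higher genes with the smallest p in each LNA489 (orange) and dual (blue) library, with the group mean and SD (n = 4). Cpb1 and Cel have the widest spread among LNA489 mice, and Mir99a sits at the value of 0 reads in all 4 LNA489 libraries.

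The remaining pathway lists gave small medians. Over all 40 lists 6 of 575 tested genes were at an unadjusted p under 0.05 (1.04%) beside the 1.64% of all genes. Besides Ptgds, Mfng and Hes1 these were Mvd of cholesterol synthesis (0.79 ± 0.37), the heat shock protein Hspa1a (1.24 ± 0.56, with 0 reads in LNA489 7) and the platelet integrin chain Itga2b (-0.71 ± 0.30). Interferon response genes had a median of -0.01 with 10 of 20 higher, and cholesterol synthesis genes 0.0055 with 10 of 19 higher. With 1 library left out these medians ran from -0.21 (without LNA489 7) to 0.15 (without LNA489 14) and from -0.19 (without dual 10) to 0.076 (without LNA489 14). Adhesion molecules and chemokines, which inflamed endothelium displays, had a median of 0.35 with 12 of 16 higher. Vcam1, the leukocyte adhesion molecule, gave 1.32 ± 0.98, with 9.59, 37.0, 6.63 and 16.8 FPKM in LNA489 and 50.7, 39.6, 13.0 and 84.7 FPKM in dual. The groups overlapped through LNA489 13, LNA489 19 and dual 15, and the list median was 0.087 without dual 10, 0.11 without LNA489 7, 0.19 without dual 21, 0.21 without LNA489 14 and 0.78 without LNA489 13. Genes that process microRNAs or carry them had a median of -0.08 with 2 of 13 higher, and from -0.16 without dual 21 to 0.0063 without dual 10.

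The same inhibitor was also added without LNA489, in the HDL + LNA92a group against HDL, and these 8 libraries share none with the comparison above. Limma called 0 genes there too, with 595 at an unadjusted p under 0.05 (3.53%), 251 of them higher (1.49%) and 344 lower (2.04%) with LNA92a, and voom called 0. The contrast of both differences, which asks whether the difference made by LNA92a depended on LNA489, called 0 genes by limma and by voom, with 530 at an unadjusted p under 0.05 (3.15%), 263 of them positive (1.56%) and 267 negative (1.58%). Across 16848 genes the 2 differences had a Pearson r of -0.35 and a Spearman rho of -0.25. Genes are not independent replicates, and the mixture of tissue is shared by many of them. Muscle markers had a median of 2.00 in LNA92a minus HDL and -0.87 in dual minus LNA489, white adipocyte markers 2.00 and -0.58, and fibroblast markers 1.59 and -0.81. The share of reads on 18S rRNA also differed, at 6.07 to 22.4% in the LNA92a libraries and 4.79 to 10.5% in the HDL libraries, and its part was not tested.

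Klf2 and Klf4 gave log2 differences of -0.21 and 0.56 in LNA92a minus HDL, against 0.37 and 0.25 in dual minus LNA489. Their non-additive values of 0.57 (unadjusted p = 0.39) and -0.30 (unadjusted p = 0.69) did not pass the test. Among the genes with the smallest p of the non-additive contrast, Hrc, which binds calcium in the sarcoplasmic reticulum, gave -4.004, Pcp4l1 -2.63 and Mlf1 -3.31. Hrc was at 5.47, 0.127, 6.53 and 2.38 FPKM in LNA489 and 0.353, 1.04, 0.713 and 0.361 FPKM in dual, again with LNA489 13 apart from its group. In the other direction Prmt6, an arginine methyltransferase, gave 1.63 and Cyp2t4 1.36. Of the genes at an unadjusted p under 0.05, 23 were so in both comparisons, 8.30% of those in dual minus LNA489 and 3.87% of those in LNA92a minus HDL. Of these 23, 20 had opposite signs in the 2 comparisons, such as Mlf1 at -1.58 and 1.73 and Prmt6 at 0.67 and -0.95. The other 3, Gm4924, Trbv31 and Gm45464, were lower in both. Opposite signs were the commoner case among all genes too. The same sign was seen in 43.05% of all 16848 genes. It was seen in 43.3% of the 277 at an unadjusted p under 0.05 in dual minus LNA489.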

How the data were processed

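RNA of 20 libraries (5 groups of 4 mice) was analysed, 8 of them in the comparison reported. The authors deposited variance-stabilized log2 values for 20442 genes and FPKM for 32081 genes. The submitters' processing notes name build GRCm38.p5 and, with no roles, DESeq2 1.18.1, STAR 2.5.3a, cutadapt 1.16, featureCounts 1.15.29 and FastQC. The annotation release and strand setting are not given in the sources used here. Since ribosomal reads enter the denominator of the authors' FPKM, more 18S rRNA in a library lowers the FPKM of its other genes. Whole reads recovered from FPKM and gene length (100% of values checked within 0.1 of a whole number) gave depth and a voom alternative. Differences of the deposited log2 values, which compress changes of weakly expressed genes, were modelled in limma 3.58.1 (R 4.3.3) over all 20 libraries (5 group means, 15 residual degrees of freedom, mean trend) for 16848 genes with a mean FPKM of at least 0.5. Tests were 2-sided, and called means a Benjamini-Hochberg adjusted p under 0.05. The fit was tested on simulated data in which genes were independent and each gene had the same spread in all groups. The tissue differences that many genes share in the real libraries were not simulated.

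Of the gene identifiers, 31903 matched GENCODE M21. The text names the 10 genes with the smallest p in each direction (mean FPKM of at least 1, no clone names), 3 in each direction of the non-additive contrast, up to 4 members with the smallest p per list and 15 genes always, apart from some that are not reported here. The pancreatic gene sum was chosen after its values were seen. The comparison, the 40 lists (614 genes, 575 tested) and the alternatives were chosen with earlier results of these data known, and lists are described, not tested. Replicates were compared pairwise and none was a duplicate.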

Additional observations from a re-analysis of the deposited data

Results flagged for a closer look

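In each group of 4 mice, a library was singled out where its gap to the nearest other value passed Dixon's 95% critical value. This happened in 25 of the 240 groups checked, and chance alone flags about 5.0% of groups. Values below are variance-stabilized log2 values, with the range of the other 3 mice of that group, and the causes were not tested.

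LNA489 13 accounted for most of them. It was highest in the macrophage list mean (11.52, others 9.522 to 9.721), the plaque foam cell list mean (13.72, others 10.56 to 10.86), cholesterol efflux (10.7, others 9.621 to 9.737) and the reported miR-92a-3p targets (10.27, others 9.988 to 10). Among single genes it was highest in C1qc at 13.31 (others 10.86 to 11.12), Atp6v0d2 at 13.57 (others 9.404 to 9.629), Trem2 at 11.61 (others 7.903 to 8.425) and Ctsd at 15.33 (others 11.97 to 12.18). It was also highest in Emcn, an endothelial sialomucin, at 9.219 (others 7.515 to 7.781).

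The same mouse was lowest in the list means of fibroblasts, muscle and the circadian clock, and in Col1a2, Ucp1 and Klf4. Its list means were 9.484 for fibroblasts (others 12.14 to 12.58), 6.147 for striated and cardiac muscle (others 8.877 to 9.185) and 8.818 for the circadian clock (others 9.485 to 9.587). Col1a2 was at 10.91 (others 13.45 to 13.84), Ucp1 at 9.491 (others 13.53 to 13.67) and Klf4 at 8.92 (others 10.58 to 10.85).

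Dual 10 was highest in the adrenal cortex list mean (11.77, others 5.594 to 6.358), in the steroid enzymes Hsd3b1 at 13.68 (others 4.696 to 6.226) and Cyp21a1 at 13.34 (others 5.232 to 5.706), and in Pcp4l1 at 7.08 (others 5.953 to 6.058). Dual 21 was lowest in extracellular matrix (9.953, others 10.65 to 10.73) and in oxidative stress and hypoxia (9.874, others 10.57 to 10.68).

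LNA489 14 was lowest in Robo4 at 5.3 (others 6.884 to 7.043) and highest in the reported miR-489-3p targets (9.761, others 9.43 to 9.473). LNA489 7 was lowest in Hspa1a at 4.209, the value of 0 reads (others 6.416 to 6.762). LNA489 19 was lowest in Cyp11b1 at 4.209, also 0 reads (others 4.636 to 4.694), and no LNA489 mouse had an appreciable level of that adrenal gene.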

How the results depend on the processing

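Limma and voom called 0 genes in the comparison under all 18 other settings run, and 0 in the non-additive contrast and in LNA92a minus HDL under theirs. The number of genes at an unadjusted p under 0.05, 277 with the chosen setting, was 758 with library weights, 618 without both fat-poor libraries and 462 with the adipocyte list mean as a covariate, the last 2 settings being chosen after seeing the data. Leaving out 1 library gave 197 (without LNA489 7) to 906 (without LNA489 13). With no filter it was 415 and with a mean FPKM of at least 1 it was 196. The cause of these moves was not tested, apart from the number of genes tested under the last 2. Where no gene differs, a share of about 0.05 of the genes tested reaches this threshold.

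Of 612 values of 34 genes under other settings, 594 kept their direction and 18, in 4 genes, changed it. Klf2 was -0.15 without both fat-poor libraries, and from -0.011 to 0.69 when 1 library was left out. Klf4 was -0.11 with library weights, -0.54 without both fat-poor libraries, and from -0.21 to 0.63 with 1 left out. Map2k4 was -0.00979 without both fat-poor libraries and from -0.12 to 0.14 with 1 left out. Mir17hg was 0.018 on log2(FPKM + 0.1), 0.11 on log2(FPKM + 1), 0.046 with library weights, 0.016 with median-centred libraries and from -0.27 to 0.42 with 1 left out. The cause was not tested. The median of genes with the 8-base miR-92a-3p match was -0.03 with any annotated UTR in place of the longest. No paired analysis was possible because no animal number occurs in both groups. With 12.9 to 21.4 M reads a library, depth left few reads in genes such as Mir99a and Ptgds.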

Other observations

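Lymphoid and blood cell genes differed between mice more than between the groups. Of 13 B and plasma cell markers 12 were lower in dual with a median log2 difference of -0.56 (-0.25 without LNA489 14), and 0 reached an unadjusted p under 0.05 in limma. Jchain, the joining chain of secreted antibodies, was at 2.41, 5.21, 21.1 and 5.19 FPKM in LNA489 7, 13, 14 and 19 and 1.59, 6.14, 4.46 and 3.90 FPKM in dual 8, 10, 15 and 21, so that LNA489 14 stood alone. Of 11 erythroid and platelet genes 7 were higher, and the beta globin Hbb-bt was at 16.8, 235, 99.7 and 77.1 FPKM in LNA489 and 94.97, 192, 158 and 532.5 FPKM in dual, highest in dual 21 and lowest in LNA489 7 (log2 difference 1.24 ± 1.04). Antigen presentation genes were higher in 14 of 16 with a median of 0.16, which was -0.02 without LNA489 7, 0.0021 without dual 10 and 0.33 without LNA489 13. Circadian clock genes were lower in 16 of 18 with a median of -0.16, which was -0.44 without LNA489 13, -0.05 without dual 10 and -0.07 without LNA489 7. Lymphatic endothelial markers had 1 of 4 tested members higher and a median of -0.58 that ran from -0.12 without LNA489 7 and -0.30 without LNA489 19 to -0.96 without LNA489 13, with Mmrn1, a protein of the extracellular matrix, at -1.06 ± 1.01.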
